A study of Mus musculus with 54 samples.

Results

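Resting subdural CNS-associated macrophages (sdCAMs) and microglia (MG) of wild-type (WT) mice were compared by bulk RNA-seq, using the 3 sdCAM and 3 MG libraries of mice 9, 14 and 15, which are 6 of the 54 libraries of the series. These wild-type mice were untreated, a group kept apart from those given the CSF1 receptor inhibitor BLZ945 or its vehicle, and were injected with PBS 12 h before perfusion. Each mouse gave 1 library of each population, sorted from brain after removal of the choroid plexuses, so the populations were paired within the animal. The members were selected by genotype, treatment and cell type labels and by no measured value. For 1 comparison the 6 libraries of untreated Ccr2-/- mice 1m, 3m and 5f were added, which carry the same treatment label and lack a functional Ccr2 gene, the receptor by which monocytes leave the bone marrow. Those libraries share no animal with the WT set.

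Microglia live inside the brain parenchyma, whereas sdCAMs occupy the leptomeninges and the perivascular spaces around vessels. Both populations arise early in development and depend on signalling through CSF1R. Microglial identity is maintained by factors such as Sall1 and by TGF-beta, and is recognised by purinergic receptors and surface proteins such as P2ry12 and Tmem119. Border macrophages are known for scavenger receptors, lectins and, in some cells, MHC class II. In the study sdCAMs are recognised by CD206, the protein of Mrc1, so Mrc1 is given here as a check of the sort and not as a finding.

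Library quality differed between the populations before any gene was compared. MG libraries held 7497764 to 8992758 counts and sdCAM libraries 3049028 (mouse 9), 2495866 (mouse 14) and 1929070 (mouse 15), while the number of genes with a count ranged from 14184 to 14676 in MG and from 13156 to 13697 in sdCAMs. The common biological coefficient of variation, the relative spread between libraries of a group beyond counting error, was 0.188 in MG and 0.689 in sdCAMs. Lars2, Rn18s (18S ribosomal RNA) and Mir6236 together took 0.0752 to 0.103% of counts in MG but 2.12, 3.64 and 7.79% in sdCAMs of mice 9, 14 and 15. Ribosomal protein genes took 0.329 to 0.369% in MG and 4.41, 3.30 and 0.774% in sdCAMs in the same order of mice. The study states that libraries of low read yield were left out, and the totals of these sdCAM libraries lie at the range it gives for the libraries left out, although its rule is on aligned reads, which were not analysed here. The sdCAM libraries of mice 9 and 14 carry a mark for immediate early gene correction in the labels, which do not explain it, and the sdCAM library of mouse 15 does not. sdCAMs of mouse 15 therefore differed from the others in composition and mark, while the gaps in depth between mice 9 and 14 and between mice 14 and 15 were similar, and counts are also given without that mouse. As these are bulk samples, fewer cells of a type and less RNA per cell cannot be told apart.

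The first question was which genes separate the populations at rest. In a paired fit (edgeR quasi-likelihood test with the mouse as a block, a gene being called where p after adjustment was under 0.05 and the fold change exceeded 1 on the log2 scale in either direction), 1291 of 11057 genes tested were called, a background of 11.7%. Of these, 962 genes, 8.7% of those tested, were higher in sdCAMs, and 329, 2.98%, were lower. Higher calls had a median log2 fold change of 3.39, exceeded 4-fold in 767 genes, and included 51 genes with no count in any MG library. Lower calls had a median log2 fold change of -1.74, exceeded 4-fold in 98 genes, and left at most 3 counts in every sdCAM library in 5 genes. Without mouse 15 there were 1539 higher and 643 lower calls, without mouse 9 there were 400 and 50, and without mouse 14 there were 201 and 1. When library totals replaced TMM scaling, an alternative added after the data were seen, the median of all genes moved from -0.15 to -0.55 and the split became 886 higher and 925 lower. The imbalance between the directions thus depended on the scaling, and levels below are on the TMM-scaled CPM scale (CPM, each count divided by the scaled library total).

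**Figure D1:**
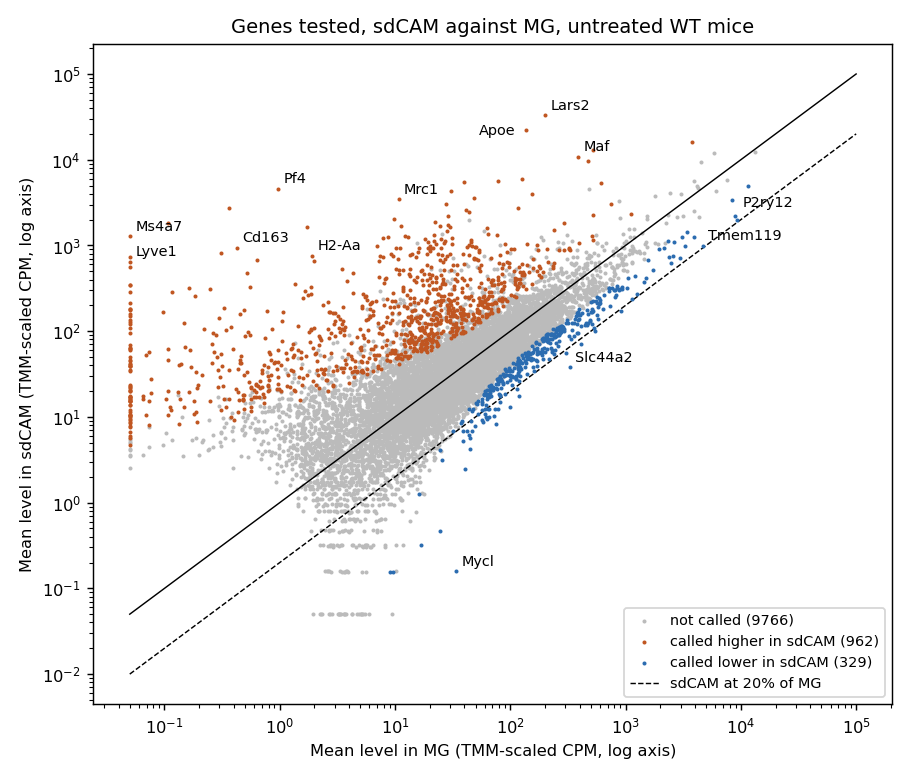
Mean level of each tested gene in MG (horizontal) against sdCAMs (vertical) over 3 WT mice, in TMM-scaled CPM on log axes, with levels under 0.05 drawn at 0.05. The 962 genes called higher in sdCAMs reach down to an MG level of 0, whereas the 329 called lower mostly lie between the solid line of equal levels and the dashed line at 20% of the MG level, or near the latter.

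All 18 border macrophage markers tested were called higher in sdCAMs, with a median log2 fold change of 9.31, or 7.79 with the 6 genes at the MG floor set to their lower bound, against -0.15 over all genes tested. The list was assembled with earlier results of these data known and holds several genes the study named from its own libraries, so the count is not independent evidence of direction. Mrc1, the mannose receptor, lay at 10.8, 10.2 and 11.1 CPM in MG and at 2728, 3414 and 4186 CPM in sdCAMs of mice 9, 14 and 15. Cd163, the hemoglobin scavenger receptor, lay at 0.461, 0.222 and 0.586 CPM in MG and at 739.6, 849.3 and 1226 CPM in sdCAMs. For both genes every sdCAM library was far above every MG library, and mouse 15 was the highest of the 3. On the log2 scale the differences were 8.30 (SE 0.396) and 11.06 (SE 0.523), each with an adjusted p of 4.24e-05 in edgeR.

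Other border markers were at or near 0 in MG. Lyve1, a hyaluronan receptor of perivascular and lymphatic cells, had at most 1 count in an MG library and 592.8, 661.2 and 682.2 CPM in sdCAMs, at least 1870-fold higher (adjusted p = 4.24e-05 by edgeR). F13a1, the coagulation factor XIII A chain, had at most 2 counts in MG and 2107, 1536 and 1898 CPM in sdCAMs, at least 5340-fold higher. Ms4a7, a membrane protein with 4 spans, had no count in MG and 2100, 1187 and 557.7 CPM in sdCAMs, at least 3710-fold higher by the mean. Floors here are 3 counts in the shallowest MG library. Fold bounds here and below divide the mean level of the higher population by the floor of the other, so single libraries can lie under them. Lyve1 and F13a1 differed little among the 3 sdCAM libraries, whereas Ms4a7 was lowest in mouse 15. Pf4, a platelet-type chemokine, spread most, with 9763, 3591 and 485.4 CPM in sdCAMs against at most 1.73 CPM in MG. Apoe, the lipid carrier, was the most abundant marker in sdCAMs, at 29640, 24510 and 13000 CPM, against 110.8 to 162.3 CPM in MG (log2 fold change 7.28, SE 0.380, adjusted p = 4.24e-05 by edgeR). Stab1, an endocytic receptor, differed least, at 509.6 to 533.7 CPM in MG and 1982 to 2677 CPM in sdCAMs (log2 fold change 2.10). All 18 markers were also called without mouse 9 and without mouse 15, and 16 of 18 without mouse 14, where Stab1 and Gas6 were lost.

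**Figure D2:**
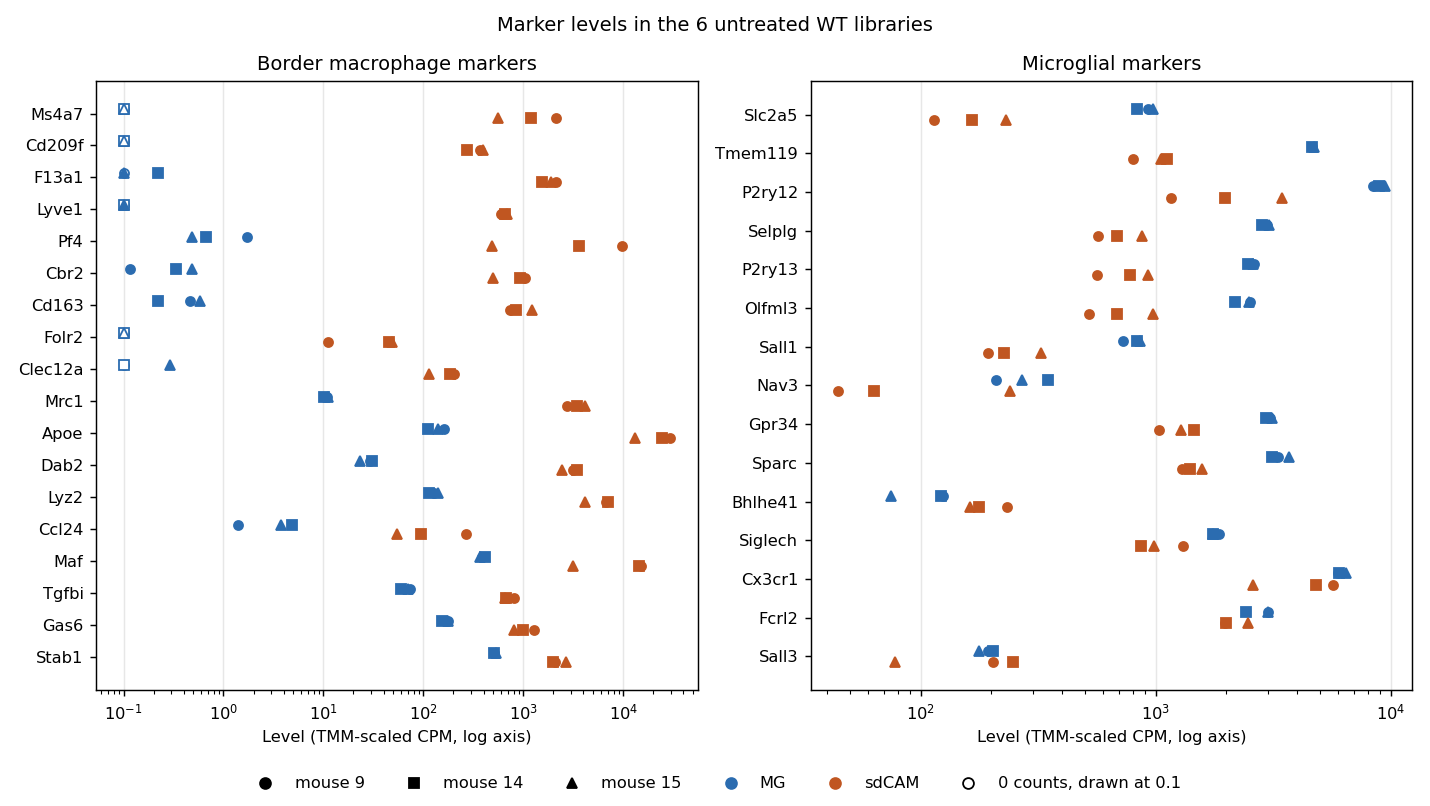
Level of 18 border and 15 microglial markers in the 6 untreated WT libraries in TMM-scaled CPM on a log axis, ordered by size of the fold change, with MG in blue, sdCAMs in orange and 1 symbol per mouse (levels under 0.1 are drawn at 0.1, open where the count was 0). All 18 border macrophage markers separate by up to several orders of magnitude, while the microglial markers separate by far less and Sall3, Fcrl2 and Nav3 overlap.

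To show the regulatory context of the 2 populations' defining receptors, the 250 bases upstream of the start of Mrc1 (chr2:14229164-14229413, plus strand) and of P2ry12 (chr3:59262986-59263235, minus strand) are printed from RefSeq, build GRCm38.p6, 5′ to 3′ on the gene's strand, with matches to the PU.1 core GAGGAAG on either strand in capitals. PU.1 (Spi1) is the lineage factor of macrophages.
Mrc1: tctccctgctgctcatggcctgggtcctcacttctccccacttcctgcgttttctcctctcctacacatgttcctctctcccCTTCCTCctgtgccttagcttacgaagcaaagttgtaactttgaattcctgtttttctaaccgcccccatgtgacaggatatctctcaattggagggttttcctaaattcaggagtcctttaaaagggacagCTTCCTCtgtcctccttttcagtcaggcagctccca
P2ry12: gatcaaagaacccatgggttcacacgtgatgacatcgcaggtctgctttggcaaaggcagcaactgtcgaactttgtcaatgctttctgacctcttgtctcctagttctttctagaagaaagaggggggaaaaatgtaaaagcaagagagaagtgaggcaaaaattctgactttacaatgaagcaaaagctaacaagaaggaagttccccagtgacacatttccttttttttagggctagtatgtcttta
The Mrc1 window held 2 matches and the P2ry12 window 0, and the same window also held 0 in the border gene Cd163 and in the microglial gene Slc2a5. Over the windows of 300 bases around the first listed start, these letters were found in 14.3% of 718 genes called higher, 15.4% of 266 called lower and 13.6% of 8762 genes tested that have an entry. The MAF half-site TGCTGA was found in 17.1, 11.7 and 14.6%, and the AP-1 motif TGANTCA in 6.13, 5.64 and 4.61% of the same sets, both strands counted. No test was made of these shares, and a match is a run of letters and not a binding site. Levels of the factors themselves follow below.

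Endocytic receptors formed the next group. Of 15 scavenger and efferocytosis receptors tested, 10 were higher in sdCAMs and 1 was lower. The background over all genes tested, 8.7% higher and 2.98% lower, applies to each list below. Msr1, which binds modified lipoproteins, lay at 0.807 to 2.11 CPM in MG and at 593.7, 253.7 and 213.5 CPM in sdCAMs (log2 fold change 7.87, adjusted p = 0.000154 by edgeR). Cd36, a fatty acid and lipoprotein receptor, lay at 1.27 to 1.84 CPM in MG and at 111.8, 292.7 and 333.7 CPM in sdCAMs, the reverse order of mice to that of Msr1. Timd4, a phosphatidylserine receptor, had no count in MG and 108.2 to 164.5 CPM in sdCAMs, at least 392-fold higher. Colec12, a collectin scavenger receptor, had at most 1 count in MG and 159.9 to 214.6 CPM in sdCAMs, at least 526-fold higher. Axl was higher in sdCAMs (182.9 to 199.7 against 19.1 to 44.5 CPM) and its relative Mertk was lower (288.6, 327 and 626.2 against 965.8, 1013 and 1151 CPM, log2 fold change -1.42, adjusted p = 0.0285 by edgeR). The 2 kinases, which sense phosphatidylserine through bridging proteins, therefore lay in opposite directions, although Mertk was not called without mouse 9 or without mouse 14. Lrp1, a broad endocytic receptor, was at 783.1 to 900.5 CPM in MG and 371.4 to 678.1 CPM in sdCAMs and was not called.

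Of 16 lectins tested, 12 were higher in sdCAMs and none was lower. Clec10a, a galactose-type lectin, had no count in MG and 413.8, 360.3 and 271.9 CPM in sdCAMs, at least 1010-fold higher (adjusted p = 9.47e-05 by edgeR). Cd209f, Cd209a and Cd209g of the DC-SIGN family likewise had no count in MG, and lay at 274.4 to 391.6, 98.95 to 196.3 and 91.9 to 173.1 CPM in sdCAMs. Siglec1, the sialic acid receptor of border and lymphoid macrophages, lay at 0.976 to 3.57 CPM in MG and 148.5 to 287.7 CPM in sdCAMs. The sialic acid receptors Siglech, Cd33 and Siglece and the activating lectin Clec5a were not called. Siglech was at 1751 to 1868 CPM in MG and at 1308, 870.5 and 983.8 CPM in sdCAMs (adjusted p = 0.117 by edgeR). All 7 tested genes of the Ms4a cluster were higher in sdCAMs, from Ms4a4a, with no count in MG and 177.1 to 231 CPM in sdCAMs, to Ms4a6d, at 99.2 to 130.5 against 281.2 to 363.1 CPM (log2 fold change 1.43, adjusted p = 0.0217 by edgeR).

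Antigen presentation genes were called in part. Of 10 MHC class II genes tested, 5 were higher in sdCAMs and 1 was lower. The surface chain gene H2-Aa lay at 2.65, 0.667 and 2.44 CPM in MG and at 993.2, 663.6 and 631.4 CPM in sdCAMs (log2 fold change 8.73, SE 0.555, adjusted p = 6.62e-05 by edgeR). Cd74, the invariant chain, lay at 41.7, 24.2 and 23.3 CPM in MG and at 1731, 1339 and 1879 CPM in sdCAMs (log2 fold change 5.83). The 3 sdCAM libraries lay close together for both genes and far above MG. The peptide-loading genes H2-DMa and H2-DMb1 overlapped between populations, with log2 fold changes of 0.00 (SE 0.333) and 0.46 (SE 0.372). H2-Ob, a chain of the modulator of peptide loading, was the member called lower, at 47.2 to 76.0 CPM in MG and 5.52, 3.38 and 17.2 CPM in sdCAMs. All 4 genes of the Lyve1-type sdCAM state and 5 of 6 genes of the MHC class II-type state that the study names were called higher in these unseparated libraries, and the remaining one, Ccr2, lay at 60.3, 20.3 and 31.6 CPM in sdCAMs and 3.34 to 9.27 CPM in MG (adjusted p = 0.0607 by edgeR).

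Complement and Fc receptor genes were mostly not called. Of 15 complement genes tested, 4 were higher in sdCAMs and none was lower. Cd93 had no count in MG and 220, 240.7 and 396.9 CPM in sdCAMs, and C4b, the complement component named for the Lyve1-type state, lay at 2.22 to 9.80 CPM in MG and 152.8, 271 and 336.1 CPM in sdCAMs. The C1q genes, which encode the recognition molecule of the classical pathway, did not pass the test, with log2 fold changes of 0.14 to 0.36, and C1qb was at 3971 to 4869 CPM in MG and 3860 to 5191 CPM in sdCAMs. Of 7 Fc receptor genes tested, Fcgrt, the neonatal Fc receptor, was higher at 474.5 to 523.8 against 102 to 120.1 CPM, and the inhibitory receptor Fcgr2b at 850.7 to 917.3 against 292.8 to 362.7 CPM. The signalling adaptor Fcer1g was at 6151, 2628 and 1057 CPM in sdCAMs and 804.8 to 1004 CPM in MG (adjusted p = 0.0511 by edgeR). Tyrobp, the DAP12 adaptor, was called higher, at 10700, 4539 and 809.5 CPM in sdCAMs against 553.8 to 653.9 CPM in MG (log2 fold change 2.51, adjusted p = 0.0362 by edgeR). Both adaptors fell across the sdCAM libraries in the order of mice 9, 14 and 15, the order in which ribosomal protein genes also fell, and the part of library composition in this was not tested.

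Chemokine levels spread widely among sdCAM libraries. Of 14 tested, 8 were higher in sdCAMs and none was lower. Ccl8, a monocyte and lymphocyte attractant, had no count in MG and 1584, 499.6 and 134.5 CPM in sdCAMs, at least 2140-fold higher by the mean (adjusted p = 9.47e-05 by edgeR). Ccl12 lay at 29.4 to 87.5 CPM in MG and at 1699, 1032 and 164.7 CPM in sdCAMs, whereas Ccl7 peaked in mouse 14 at 241.6 CPM and Ccl2 in mouse 15 at 137.9 CPM. Summed over the list, sdCAM libraries held 14480, 6286 and 1615 CPM and MG libraries 332.9 to 543.8 CPM, with Pf4 the largest contributor in mice 9 and 14. Of 7 chemokine receptors tested, 4 were higher and 1 was lower. Ccr1, a receptor of inflammatory chemokines, rose from 7.61 to 13.95 CPM in MG to 285.3, 347.7 and 353.3 CPM in sdCAMs (log2 fold change 4.85, adjusted p = 0.000218 by edgeR). Cx3cr1, the fractalkine receptor of microglia, lay at 5698, 4791 and 2597 CPM in sdCAMs and 5949 to 6454 CPM in MG and was not called (log2 fold change -0.57, SE 0.309).

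Genes of lipid and iron handling were higher in part. Of 11 lipid genes tested, 4 were called, all higher: Apoe, Tyrobp, Lgals1 and Pltp, the phospholipid transfer protein (99.9, 187.6 and 234.6 CPM against at most 1.33 CPM in MG). Of 10 iron and heme genes tested, 5 were called, all higher. Cp, the ferroxidase ceruloplasmin, lay at 3.46 to 4.89 CPM in MG and 409.3 to 543.5 CPM in sdCAMs, and Fth1, the ferritin heavy chain, at 682.7 to 842 against 2314 to 3700 CPM. The iron exporter Slc40a1 was at 396.3 to 497.7 CPM in MG and 244.4 to 386.3 CPM in sdCAMs and was not called. Lysosomal genes were mostly not called, with 1 of 18 called higher (Ctsc, log2 fold change 1.05) and 2 lower. Among the latter, Ctsd, the aspartic protease cathepsin D, lay at 7581 to 9298 CPM in MG and 3267 to 3510 CPM in sdCAMs, with tight values in both populations (log2 fold change -1.31, SE 0.245, adjusted p = 0.0123 by edgeR).

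**Figure D3:**
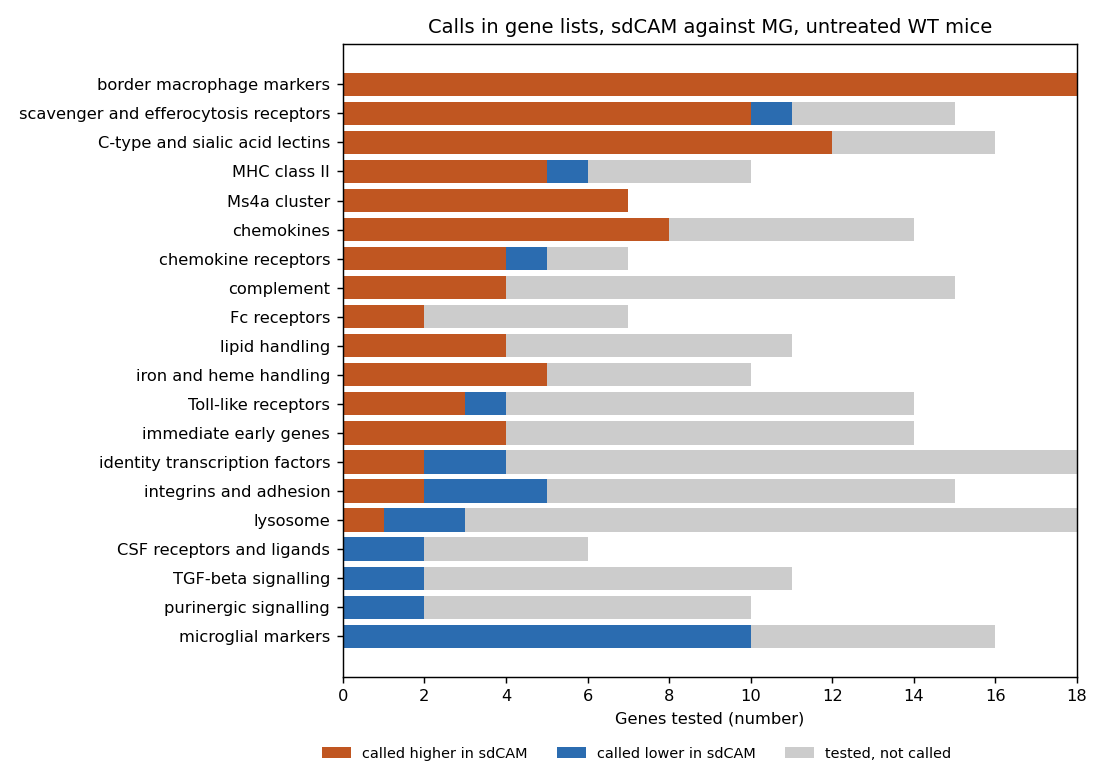
Number of tested genes of each list called higher in sdCAMs, called lower, or not called (bars stacked from 0). Border markers, lectins and the Ms4a cluster are called in 1 direction, and purinergic, TGF-beta and lysosomal genes are mostly not called.

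Of 18 identity factors tested, 2 were higher and 2 lower in sdCAMs (background 8.7 and 2.98%). Maf, a macrophage differentiation factor, lay at 384.6, 412.8 and 369.3 CPM in MG and at 14980, 14480 and 3139 CPM in sdCAMs (log2 fold change 4.53, SE 0.492, adjusted p = 0.000953 by edgeR). Runx3 had no count in MG and 7.72 to 10.1 CPM in sdCAMs, with at most 22 counts in a library. Sall1, which maintains microglial identity, lay at 723.9, 834.4 and 855.7 CPM in MG and at 194.2, 227.6 and 324.1 CPM in sdCAMs (log2 fold change -1.72, SE 0.322, adjusted p = 0.0123 by edgeR), and Hhex, a homeobox factor, at 196.8 to 204.4 against 47.4 to 119.7 CPM. The lineage factors Spi1, Irf8, Runx1, Cebpa and Mef2c were not called. Of 14 Toll-like receptor genes tested, Tlr8, Tlr9 and Tlr5 were higher and Tlr3 was lower in sdCAMs, whereas Tlr4 and Cd14, which sense LPS, were not called. Tlr9 was the 1 gene of these 14 called in the comparison of genotypes below. In Ccr2-/- mice its mean was 2.15 CPM in sdCAMs and 5.09 CPM in MG (interaction 4.95, adjusted p = 0.0101 by edgeR).

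Immediate early genes, which are induced within minutes and also by tissue dissociation, were partly higher in sdCAMs. Of 14 tested, 4 were called higher and none lower. Fos lay at 0.807, 4.11 and 4.00 CPM in MG and at 54.3, 193.9 and 116.8 CPM in sdCAMs (log2 fold change 5.43, adjusted p = 0.000235 by edgeR), and Ier2 at 9.57 to 19.6 against 61.2, 285 and 37.3 CPM. Mouse 14 was the highest sdCAM library for Fos, Dusp1 and Ier2 and also the highest MG library for each of them. Jun, Junb, Btg2 and Zfp36 were not called. Without mouse 14, 1 gene of the list was called.

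The opposite side of the comparison was the loss of microglial genes. Of 16 microglial markers tested, 10 were lower in sdCAMs, none was higher, and the median log2 fold change was -1.68. P2ry12, the ADP receptor that guides microglial processes, lay at 8400, 8923 and 9474 CPM in MG and at 1163, 1981 and 3445 CPM in sdCAMs (log2 fold change -2.16, SE 0.326, adjusted p = 0.00507 by edgeR). Tmem119, a microglial membrane protein, lay at 4630, 4610 and 4742 CPM in MG and at 805.4, 1114 and 1058 CPM in sdCAMs (log2 fold change -2.24, SE 0.282, adjusted p = 0.00217 by edgeR). MG libraries lay close together for these genes, while P2ry12 in sdCAMs was lowest in mouse 9 and highest in mouse 15. Other lower markers were Slc2a5, Selplg, P2ry13, Olfml3, Sall1, Gpr34 and Sparc. Siglech, Cx3cr1, Fcrl2, Nav3, Sall3 and Bhlhe41 did not pass the test, and Bhlhe41 was at 161.8 to 233.8 CPM in sdCAMs against 74.8 to 125.1 CPM in MG. Without mouse 14 none of the 16 was called, with 7 called without mouse 9 and 11 without mouse 15.

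Pathways tied to microglia were read against the 2.98% of all genes tested that were called lower. Of 10 purinergic genes tested, 2 were lower, P2ry12 and P2ry13, which are also in the microglial marker list. Of 11 TGF-beta genes tested, the integrin chain Itgav (308.4 to 445.6 against 81 to 271.4 CPM) and the repressor Ski (523.6 to 630.9 against 192.4 to 303 CPM) were lower, while the receptors Tgfbr1 and Tgfbr2 were not called. Of 6 CSF receptors and ligands tested, Csf1r, on which both populations depend, was lower at 3869, 4707 and 6163 CPM in sdCAMs against 11040 to 12030 CPM in MG (log2 fold change -1.26, adjusted p = 0.0148 by edgeR), and Csf3r was lower as well. Of 15 adhesion genes tested, Itgb5 and Icam1 were lower with Itgav, whereas Vcam1 (322.7 to 751.6 against 7.52 to 19.7 CPM) and Itga4 (93.1 to 139 against at most 3.00 CPM), a ligand and a chain of its receptor, were both higher.

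The lower calls with the smallest p, beside the markers, were Mycl, Cdh23, Itgb5, Slc44a2, Sgk1, Jam2, Klhdc8b and Adgrg1. Adgrg1 (GPR56), an adhesion receptor typical of yolk sac-derived microglia, lay at 1203 to 1340 CPM in MG and at 166.6, 280.2 and 372.5 CPM in sdCAMs. Jam2, a junctional adhesion molecule, lay at 157.7 to 169.9 CPM in MG and at 31.8 to 38.2 CPM in sdCAMs. Mycl, a MYC family factor, differed from the others in depth, with 32.3 to 36.1 CPM in MG and at most 1 count in an sdCAM library, at least 23.3-fold lower (adjusted p = 0.00385 by edgeR). Among higher calls ranked the same way, genes outside the 2 marker lists were Colec12, described above, Ccnd2 (482.8, 435 and 69.9 CPM in sdCAMs, at most 0.778 CPM in MG), a cyclin, Aoah (133.5 to 182.9 against at most 0.781 CPM), which deacylates LPS, and Lars2. Lars2, a mitochondrial tRNA synthetase gene, lay at 17090, 25160 and 57300 CPM in sdCAMs and 194.1 to 214.3 CPM in MG. Mir6236 followed the same order of mice, at 2973, 5731 and 8188 CPM, whereas Rn18s did not, at 9735, 12870 and 6489 CPM. Whether the Lars2 reads derive from its own transcript was not tested.

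The sdCAM level of the microglial markers was then set against the MG level of the same mouse. This measure cannot tell MG RNA in an sdCAM library from expression by the sdCAMs. Over the 16 microglial markers, the median sdCAM level was 24.1, 31.6 and 39.5% of the MG level of the same mouse in mice 9, 14 and 15, a mean of 31.8 ± 7.70% (SD, n = 3). Without TMM scaling the medians were 14.9, 22.9 and 37.6%, so the value of mouse 9 in particular depended on the scaling. The markers did not share a common percentage. Among the 15 markers plotted, they ranged in mouse 9 from 12.3% (Slc2a5) to 186.9% (Bhlhe41), in mouse 14 from 18.1 to 144.8% and in mouse 15 from 22.3 to 216.4%. A single source of MG RNA would add each MG transcript at 1 ratio only if amplification were even, which was not tested. The lowest percentages below are minima over many genes and carry the spread between libraries, so they are given as values and not as a limit. Among 1583 genes with at least 100 CPM in every MG library, the lowest sdCAM level was 4.49% in mouse 9 and 7.80% in mouse 14, both for the choline transporter Slc44a2, and 18.15% in mouse 15, for Mfng. The 1st percentile over these genes was 11.3, 16.5 and 24.8%. The 6 genes whose highest value over the 3 mice was lowest were Cdh23, Slc44a2, Sgk1, Cd34, Slc2a5 and Tmem119, and Cdh23, a cadherin, lay at 11.7 and 11.9% in mice 9 and 14 and highest in mouse 15.

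Genes at lower MG levels were examined in the same way. Of 3267 genes at 30 to 100 CPM in every MG library, 1 gene, Mycl, had at most 3 counts in every sdCAM library, and of 3047 genes at 10 to 30 CPM there were 3 (Zbed5-ps, Zfp213 and Jag2), chosen for mention after their values were seen. Mycl lay at 0, 0 and 1.33% of the MG level, and its sdCAM floor of 3 counts corresponded to 4.23, 4.47 and 3.98% of the MG level. These values lie under the lowest level among abundant genes, most of all in mouse 15. They come from 1 gene picked for its low sdCAM counts, and the floor covers counting error only, so they set no limit for other genes. In the other direction, over the 18 border markers, the median MG level was 0.230, 0.168 and 0.261% of the sdCAM level, and Ms4a7, Ccl8, Ifi203, Clec10a, Cd209f and Cd93, each with at least 100 CPM in every sdCAM library, had no count in MG. A count of 0 in MG allows up to 0.293 to 0.346 CPM (3 counts, counting error only).

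**Figure D4:**
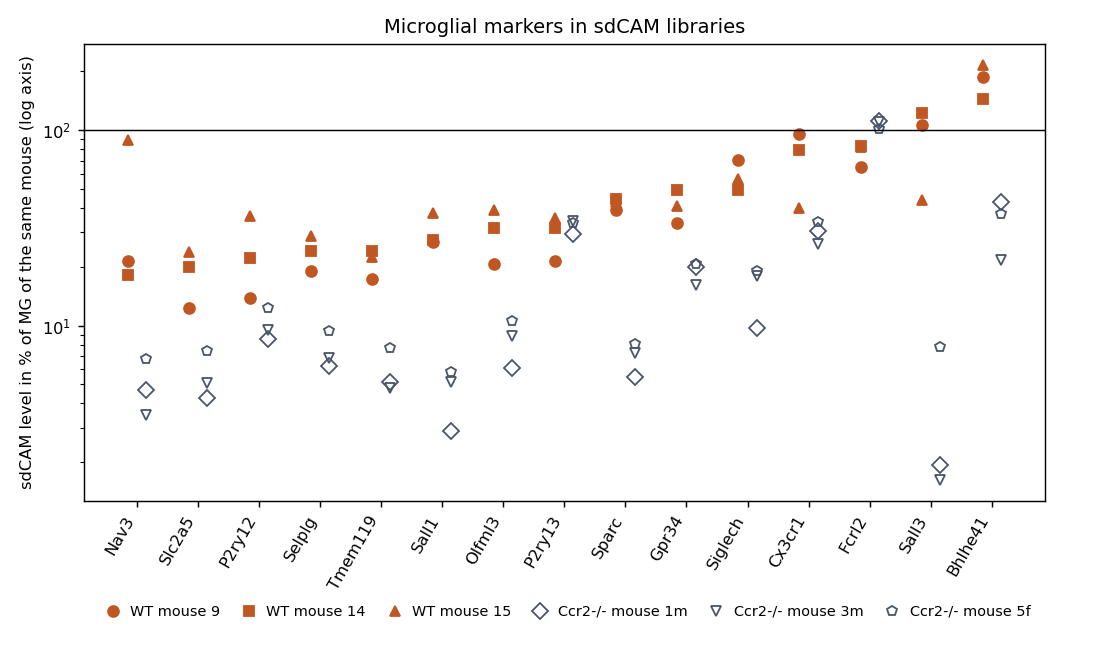
sdCAM level of 15 of the 16 microglial markers in percent of the MG level of the same mouse, on a log axis, for 3 WT mice (filled) and 3 Ccr2-/- mice (open), with a line at 100%. The WT values lie between 12.3 and 216.4%, and for 11 of the markers the difference of sdCAMs from MG was called more positive in WT than in Ccr2-/- mice.

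The calls were recomputed after subtracting MG counts of the same mouse from each sdCAM library. At the lowest level among abundant MG genes (4.49, 7.80 and 18.15%), 852 genes were higher and 374 lower, and 18 border and 10 microglial markers were called as before. At the median marker level (24.1, 31.6 and 39.5%), which exceeds those levels, 159 were higher and 51 lower, with 15 border and 7 microglial markers called. The microglial markers themselves set this level, so their calls after it are not independent of the subtraction. The 6 markers lost were Stab1, Folr2, Ccl24, Sall1, Sparc and Gpr34, with an adjusted p of 0.0589 to 0.103 by edgeR, and the fitted differences of Stab1 (2.31), Ccl24 (5.40), Sparc (-3.21) and Gpr34 (-3.72 on the log2 scale) were larger in size than without subtraction. None of the 1291 calls that remained tested changed sign under either subtraction. Subtraction only removes counts from the sdCAM libraries, which moves genes lower in sdCAMs further down and hardly changes genes nearly absent in MG. The unchanged signs and the larger differences of Sparc and Gpr34 were therefore largely set by the procedure.

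To see whether the contrast was the same in another genotype, the sdCAM against MG difference was compared with that of untreated Ccr2-/- mice in a fit of all 12 libraries with mouse blocks. The Ccr2-/- sdCAM libraries were deeper, at 8124128 to 8929948 counts, and held the 3 genes Lars2, Rn18s and Mir6236 at 0.0713 to 0.0929%. Genotype could not be told apart from these differences in library depth and composition. Fitted alone, Ccr2-/- mice gave 1068 higher and 901 lower calls, 9.44 and 7.96% of 11316 genes. Of the 962 genes higher in WT sdCAMs, 426 were called higher in Ccr2-/- mice, 44.3% of the WT list and 39.9% of the Ccr2-/- list, and 6 were called lower. Of the 329 genes lower in WT sdCAMs, 196 were called lower in Ccr2-/- mice, 59.6% of the WT and 21.8% of the Ccr2-/- list, and 0 were called higher.

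The difference itself was called for 286 of 12353 genes, 2.32%, of which 241 (1.95%) had the more positive sdCAM against MG difference in WT and 45 (0.364%) the less positive. The same test counted 2400 genes at an unadjusted p under 0.05. Lars2, Rn18s and Mir6236 were among the 5 genes with the smallest p and a more positive difference in WT, and in Ccr2-/- sdCAMs Lars2 lay at 158.1, 160.6 and 183.9 CPM. Of the 16 microglial markers, 11 were called, each with the more positive difference in WT. Sparc, a matrix protein abundant in microglia, lay at 1294, 1401 and 1581 CPM in WT sdCAMs and at 267.2, 384.1 and 431.2 CPM in Ccr2-/- sdCAMs (levels scaled within each genotype), so that its difference was 2.59 more positive in WT in log2 units (SE 0.219, adjusted p = 0.000769 by edgeR). Sall1 lay at 17.6 CPM or more in each Ccr2-/- sdCAM library, 2.90 to 5.78% of MG, against 26.8 to 37.9% in WT. P2ry12, P2ry13, Fcrl2 and Cx3cr1 did not pass this test. Genes at 100 CPM or more in every MG library of both genotypes numbered 1318. Of these, 0 lay under 20% of the MG level in all 3 WT sdCAM libraries, and 52 in all 3 Ccr2-/- ones. Mouse 15 limited the WT count, as its 1st percentile lay above 20%. Percentiles were taken over the genes abundant in MG within each genotype (1583 in WT, 1602 in Ccr2-/-). The 1st percentile was 11.34, 16.49 and 24.81% in WT mice 9, 14 and 15, against 5.09, 5.283 and 9.742% in Ccr2-/- mice. The 5th percentile was 20.88, 26.43 and 36.99% against 19.7, 18.4 and 23.6%, so that of WT mouse 9 lay within the Ccr2-/- range. The median microglial marker level was 7.40, 9.14 and 11.4% in the Ccr2-/- mice.

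Of the 18 border markers, 1 was called more positive in WT (Maf) and 3 less positive (Mrc1, Stab1 and Tgfbi). Mrc1 lay at 7182 to 8024 CPM in Ccr2-/- sdCAMs against 2728 to 4186 CPM in WT (interaction -1.46, SE 0.290, adjusted p = 0.0311 by edgeR), and Maf at 908.9 to 1033 against 3139 to 14980 CPM (interaction 3.11, adjusted p = 0.0121 by edgeR). Ccr1, Ctsc, Stom, Dse and Ctsb, named by the smallest p, were likewise less positive in WT. The cysteine protease genes Ctsb and Ctsc lay at 5473, 5455 and 6053 CPM and at 2296, 2051 and 2627 CPM in WT sdCAMs, against 15590 to 17020 and 8156 to 8853 CPM in Ccr2-/- sdCAMs. Without WT mouse 14 the count of interaction calls fell to 11 and without WT mouse 15 it was 1749, and omission of 1 Ccr2-/- mouse left 51 to 67. Among the 16 microglial markers, 1 was called without WT mouse 14, 11 without WT mouse 9 and 12 without WT mouse 15, and 5, 5 and 6 were called without Ccr2-/- mouse 1m, 3m and 5f.

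**Figure D5:**
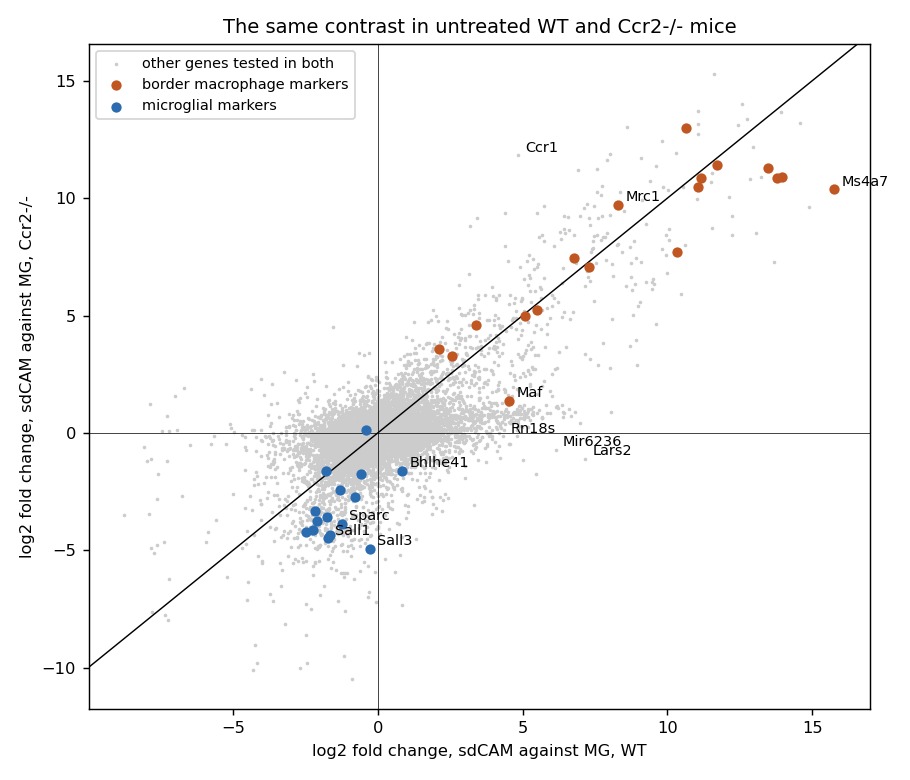
Log2 fold change of sdCAMs against MG in WT (horizontal) and Ccr2-/- mice (vertical) for genes tested in both, with the line of equal values. Border markers scatter around the line, microglial markers lie mostly below it, and Lars2, Rn18s and Mir6236 lie at 4.32 to 7.17 in WT and between -1.09 and -0.14 in Ccr2-/- mice.

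Markers of other cells that the sort could hold were examined last. T and NK cell markers summed to at most 1.44 CPM and mast cell markers to at most 4.82 CPM in any sdCAM library, and their defining genes did not pass the filter. Of 8 monocyte markers 1 was tested (Ccr2, above), and the monocyte genes Ly6c2 and Plac8 were at 0 in 2 of 3 sdCAM libraries each. The 8 markers summed to 66.73, 48.23 and 34.95 CPM in sdCAMs of mice 9, 14 and 15. Of this, Ccr2 held 60.3, 20.3 and 31.6 CPM. In MG the sum was 5.19 to 10.64 CPM. Summed over the neutrophil list, sdCAMs of mice 9, 14 and 15 held 273.4, 129.2 and 164.2 CPM. Csf3r gave 162, 88.25 and 164.2 CPM of these sums. Of the other genes, S100a8 lay at 31.8 and S100a9 at 79.6 CPM in mouse 9. S100a8 also had counts in mouse 14, and both genes were at 0 in mouse 15 and in the 3 MG libraries. Csf3r, of the same list, was lower in sdCAMs, as above. The fibroblast gene Dcn was called higher, with 23.5, 38.1 and 8.14 CPM in sdCAMs and no count in MG, at least 67.2-fold higher, and Col1a2 was at 30.4 CPM in mouse 9 and at most 1.44 CPM in the other two. Of 6 oligodendrocyte genes tested, 1 was called higher, and Mbp, Mag and Cnp were not called. Slc1a2 of astrocytes (10.1, 90.2 and 25.8 CPM) and Syt1 of neurons (70.9, 74.8 and 3.35 CPM) were also higher, the astrocyte gene Slc1a3 was lower (95.3 to 135.8 against 248.8 to 316.7 CPM), and Gfap and Aqp4 did not pass the filter. The hemoglobin gene Hba-a1 (200.2 CPM) and Ttr of the choroid plexus (172.6 CPM) were highest in sdCAMs of mouse 9 and at most 1.93 and 12.0 CPM in those of the other mice, and neither was called. The part of these cells in the genes called higher was not tested.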

How the data were processed

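RNA from sorted cells had been amplified by the authors from picogram amounts with a SMARTer kit and made into Nextera XT libraries, read as single reads of an Illumina instrument. Per the labels' processing notes the tools were bcl2fastq 2.20, STAR 2.7.11a, featureCounts 2.0.8 and DESeq2 1.46.0. The deposited values are whole-number counts per gene symbol, not normalized, without molecular identifiers, so amplification duplicates remain and floors cover counting error only. The genome build is named ambiguously and the strand setting is not given in the sources used here, so overlapping genes, and genes with near-identical copies such as ribosomal protein genes, are uncertain. The batch correction and gene removal of the study were not applied to these counts.

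From the counts of 33280 symbols, with 0 unmatched columns, genes passing filterByExpr were fitted with edgeR 4.0.16 in R 4.3.3 (TMM, quasi-likelihood, two-sided, Benjamini-Hochberg adjustment over all genes tested), with calls at 0.05 and a log2 fold change of 1. The mouse was a block because same-numbered libraries came from the same animal. Deviations from the group means correlated at 0.140, 0.0139 and 0.108 within mice 9, 14 and 15. Against other mice the values were -0.136 to 0.00845, -0.0776 to 0.0605 and -0.0939 to -0.026 in the same order. The value within mouse 14 thus lay inside its range against other mice. SE is the log2 fold change divided by the square root of F. The fit was run on simulated counts drawn from MG means, with the same spread in both populations and no difference between mice. It therefore did not cover the wider spread of sdCAMs (coefficient of variation 0.689 against 0.188 in MG). DESeq2 1.42.0 and limma 3.58.1 were alternatives. Residual degrees of freedom were 2.

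Named genes were both marker lists, the 12 calls per direction with the smallest p, at least 10 CPM on average, no overlap, the same direction in each mouse and no predicted gene name, up to 4 calls per direction and 3 uncalled genes of each other list, the 5 interaction genes per direction with the smallest p, and the 6 genes lowest in the other population among those with at least 100 CPM. Some of these 174 genes are described, and 5 genes are not reported here, although counts over lists include them. Members and lists were chosen with earlier results of these data known. Promoters came from RefSeq by symbol.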

Additional observations from a re-analysis of the deposited data

Results flagged for a closer look

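The following genes differed between genotypes in their sdCAM against MG difference by the interaction test of edgeR (adjusted p under 0.05, WT minus Ccr2-/-, log2 scale). Among those with the smallest p, the difference was 8.23 for Lars2, 6.83 for Mir6236, 4.43 for Rn18s and 2.59 for Sparc, and -7.01 for Ccr1, -2.03 for Stom, -1.88 for Dse, -1.498 for Ctsc and -1.03 for Ctsb. The value of Ccr1 rests on Ccr2-/- MG libraries with 0 to 0.425 CPM and so depends on the prior count of the fit.

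Microglial markers were flagged with differences of 4.72 for Sall3, 2.74 for Sall1, 2.71 for Nav3, 2.43 for Bhlhe41, 1.93 for Siglech, 1.85 for Tmem119, 1.80 for Olfml3, 1.70 for Slc2a5, 1.65 for Selplg and 1.08 for Gpr34. Border markers were flagged at 3.11 for Maf, -1.46 for Mrc1, -1.498 for Stab1 and -1.24 for Tgfbi. Beside these, WT sdCAM libraries held 1929070 to 3049028 counts and Ccr2-/- ones 8124128 to 8929948, and the part of this in the differences was not tested.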

How the results depend on the processing

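Under every alternative run, none of the 1291 calls that remained tested changed sign, but the number of calls moved with tool, filter and single mice. Calls whose genes an alternative did not test were not compared. DESeq2 gave 2297 calls (1602 higher, 695 lower), voom 2501 (1870 and 631), no filter 2165 with 809 lower, the study's low-count rule 2241 with 828 lower, and glmTreat 567 (525 and 42). Library totals without TMM, added after the data were seen, gave 925 lower calls. Subtraction at the median marker level gave 210 calls (159 and 51). Without the replicate block, 1894 genes were called, 514 lower, and 1245 of the 1291 calls of the paired fit were kept. Leaving out 1 mouse gave 202 to 2182 calls, 201 to 1539 higher and 1 to 643 lower, the smallest without mouse 14. Omission of Lars2, Rn18s and Mir6236, also added later, gave 1292 calls. Genotype by cell type calls were 893 without the replicate block, 1179 by DESeq2, 1051 with no filter and 11 to 1749 without 1 mouse. The mean microglial marker level stayed within 1 SD of 31.8% under all its alternatives, although the value of mouse 9 moved from 24.1 to 14.9% in CPM without TMM. Depth of 1929070 counts in sdCAMs of mouse 15 limits low genes, and with 2 residual degrees of freedom a missed call does not show equal levels. The causes of these shifts, among them fewer samples in the fits without a mouse, were not tested.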
